A study of Mus musculus with 9 samples.

Results

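The genes described here are 10 chemokines that draw monocytes and neutrophils into tissue, namely Ccl2, Ccl3, Ccl4, Ccl5, Ccl7, Ccl12, Cxcl1, Cxcl2, Cxcl5 and Cxcl15. They were chosen by name, as the probe sets of the deposited value table to which the platform annotation gives one of these names as the only gene symbol. All 10 genes were found, on 13 probe sets, among 18193 genes and 45037 probe sets other than controls. Cxcl1 has 3 probe sets and Cxcl15 has 2, and the brightest stands for the gene unless another is named. The AdV-IL4 mice were given a virus encoding mouse IL-4, the AdV-IL4d2 mice one encoding its mouse splice variant IL-4d2, and the AdV-NULL mice one without a cytokine gene. All 9 mice, 3 per group, were female C57BL/6 animals aged 14 weeks that received a replication-deficient adenovirus into the trachea, so the AdV-NULL lungs were exposed to adenovirus too, and no uninfected lung was analysed here. Whole lungs were taken 14 days later and each was measured on its own array, so the replicates are separate mice. The cells that the virus infected are not given in the sources used here, and in whole lung RNA more cells of a type and more RNA per cell cannot be told apart.

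Chemokines are small secreted proteins that bind G protein-coupled receptors on leukocytes and guide their migration. The CC chemokines of the group act mainly on monocytes, macrophages and T cells, through receptors that include Ccr1 and Ccr2, while Cxcl1, Cxcl2 and Cxcl5 act on neutrophils through Cxcr2. Cxcl15, also called lungkine, is a mouse neutrophil attractant made by the airway epithelium. Many of these genes are induced within hours by microbial products, TNF and IL-1 through the transcription factor NF-kB, whereas IL-4 is the central cytokine of type 2 immune responses.

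All 10 genes lie in 3 clusters. In the order of the RefSeq gene table, Ccl2, Ccl7 and Ccl12 share one block on chromosome 11 and Ccl5, Ccl3 and Ccl4 another, while Cxcl5, Cxcl15, Cxcl1 and Cxcl2 lie in a block on chromosome 5. Promoter sequences from RefSeq (GRCm38.p6) were found for 5 of the 10 genes: Ccl3, Ccl12, Cxcl1, Cxcl2 and Cxcl15. The last 120 bases before the annotated start are printed for Ccl3, the member with the largest difference between groups, and for Cxcl1 and Cxcl2, the adjacent neutrophil attractants. In capitals are matches, on either strand, to one spelling of the NF-kB motif, GGG and TTTCC with any 2 bases between them, or to TATAA, the core of the TATA box. Ccl3 was read at chr11:83649379-83649498 on the minus strand, Cxcl1 at chr5:90891125-90891244 and Cxcl2 at chr5:90903779-90903898, both on the plus strand.
Ccl3: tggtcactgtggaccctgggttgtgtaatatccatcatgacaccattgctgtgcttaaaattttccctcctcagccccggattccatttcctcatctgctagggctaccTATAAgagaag
Cxcl1: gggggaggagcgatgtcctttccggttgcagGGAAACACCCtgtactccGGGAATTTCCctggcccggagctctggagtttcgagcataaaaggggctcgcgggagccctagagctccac
Cxcl2: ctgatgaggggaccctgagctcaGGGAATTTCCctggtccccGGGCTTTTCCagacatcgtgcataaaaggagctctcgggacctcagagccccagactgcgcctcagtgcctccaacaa

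Within the 250 bases before the start, Cxcl1 and Cxcl2 each held 2 matches to the NF-kB motif, and Ccl3, Ccl12 and Cxcl15 held none. That motif occurred in 1.41% of 32851 mouse promoter windows of the same length. TATAA occurred in 22.8% of these windows and matched in Ccl3, Ccl12 and Cxcl15, on both strands of each window. The motif of STAT6, the transcription factor of IL-4 signalling, searched as TTC and GAA with any 4 bases between them, occurred in 5.85% of the windows and in none of the 5 found here. A match is a description of letters only, and the lack of one says nothing about binding of a factor.

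Signals are MAS5 intensities, which the deposited values give after scaling of each array to the same trimmed mean, and the array medians lay between 156 and 171. Il4 itself, which checks the labels of the AdV-NULL arrays, read 379, 301 and 335 in AdV-IL4 lungs, 1172, 944 and 499 in AdV-IL4d2 lungs, and 43.1, 15.8 and 71.6 in AdV-NULL lungs. It was high with both cytokine viruses, so it does not tell their labels apart. The AdV-IL4d2 lungs lay above the AdV-IL4 lungs without overlap (log2 difference −1.25 for AdV-IL4 against AdV-IL4d2, limma adjusted p = 0.104). The part of that unequal level in comparisons of these 2 groups was not tested. The arrays of AdV-NULL mouse 1 and AdV-IL4 mouse 2 stood apart from their groups in muscle genes: the 5 skeletal muscle markers above the filter summed to 55906 in AdV-NULL mouse 1 and to 1858 to 6436 in the other AdV-NULL mice, and 8 heart markers to 1861 in AdV-IL4 mouse 2 and 8361 to 8710 in the other AdV-IL4 mice. The groups differed too: heart markers summed to 17974 to 37518 in AdV-NULL lungs, above every AdV-IL4 lung. In AdV-IL4d2 lungs they summed to 24847, 7358 and 21152. Against AdV-NULL, limma called 6 heart and 4 skeletal markers lower in AdV-IL4 lungs (adjusted p under 0.05) and 0 in AdV-IL4d2 lungs. Without AdV-NULL mouse 1 and AdV-IL4 mouse 2, 1 heart and 0 skeletal markers stayed called. With all arrays, called or not, all 5 skeletal and all 8 heart markers lay lower than in AdV-NULL in both groups. The median log2 difference of the skeletal markers was −3.52 in AdV-IL4 and −2.85 in AdV-IL4d2 lungs. That of the heart markers was −2.22 and −0.51. The part of muscle content in the results below was not tested beyond leaving out arrays. Lung markers were high everywhere, with 9 markers summing to 149933 to 163095 in AdV-IL4, 138414 to 151580 in AdV-IL4d2 and 123683 to 170946 in AdV-NULL lungs. The 3′ to 5′ signal ratio of the Gapdh control probe sets, a measure of RNA integrity, was 1.80, 1.78 and 1.55 on AdV-IL4 arrays, 1.57, 1.35 and 1.47 on AdV-IL4d2 arrays, and 0.955, 1.45 and 1.44 on AdV-NULL arrays. That of beta-actin was 3.75, 3.16 and 2.79 on AdV-IL4 arrays, 2.79, 2.61 and 2.34 on AdV-IL4d2 arrays, and 2.28, 2.80 and 2.88 on AdV-NULL arrays. The part of RNA integrity in the results below was not tested. Bacterial control transcripts were brighter on AdV-IL4 arrays, and scaling to the hybridisation or poly-A controls moved the median log2 difference of all genes between AdV-IL4 and AdV-NULL by −0.43 or −0.77. The same scalings moved the median by 0.09 or 0.27 for AdV-IL4d2 against AdV-NULL and by −0.52 or −1.05 for AdV-IL4 against AdV-IL4d2. Differences are given on the deposited scaling, without these shifts, unless a control scaling is named.

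Of the 10 chemokines, limma called Ccl3 alone at an adjusted p under 0.05: its signal was about 3.7 times as high in AdV-IL4 as in AdV-NULL lungs. In AdV-IL4d2 lungs none was called, although Ccl5 lay above both other groups in every mouse. Only probe sets whose signal exceeded the array median on 3 or more of the 9 arrays were tested, and 7 of the 10 genes passed, while Ccl7, Cxcl2 and Cxcl5 were too dim. For AdV-IL4 against AdV-NULL 1 of the 7 tested genes was called higher and 0 lower, where 6.34% of all 11984 tested genes were called higher and 6.63% lower. For AdV-IL4d2 against AdV-NULL 0 were called either way, where 0.859% of all tested genes were called higher and 0.401% lower. For AdV-IL4 against AdV-IL4d2 0 were called, where 1.18% were called higher and 1.05% lower. At an unadjusted p under 0.05 limma counted 1, 1 and 3 of the 7 genes in these comparisons. The share of all tested genes at that unadjusted threshold is not given here. The shares above are at the adjusted threshold and are no background for these 3 counts. The median log2 difference of the 7 was 0.12, 0.20 and −0.05, beside −0.02, −0.0011 and −0.02 for all tested genes. Ccl3 entered the 7 through the group in which it was high, so these counts and medians are a description. Both comparisons against AdV-NULL share the same 3 control arrays.

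Without the filter limma called Ccl3 alone among the 10 genes for AdV-IL4 against AdV-NULL, and none in the other comparisons. Of all 45037 probe sets, 4.21% were then called for AdV-IL4 against AdV-NULL, 0.475% for AdV-IL4d2 against AdV-NULL and 0.542% for AdV-IL4 against AdV-IL4d2.

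**Figure D1:**
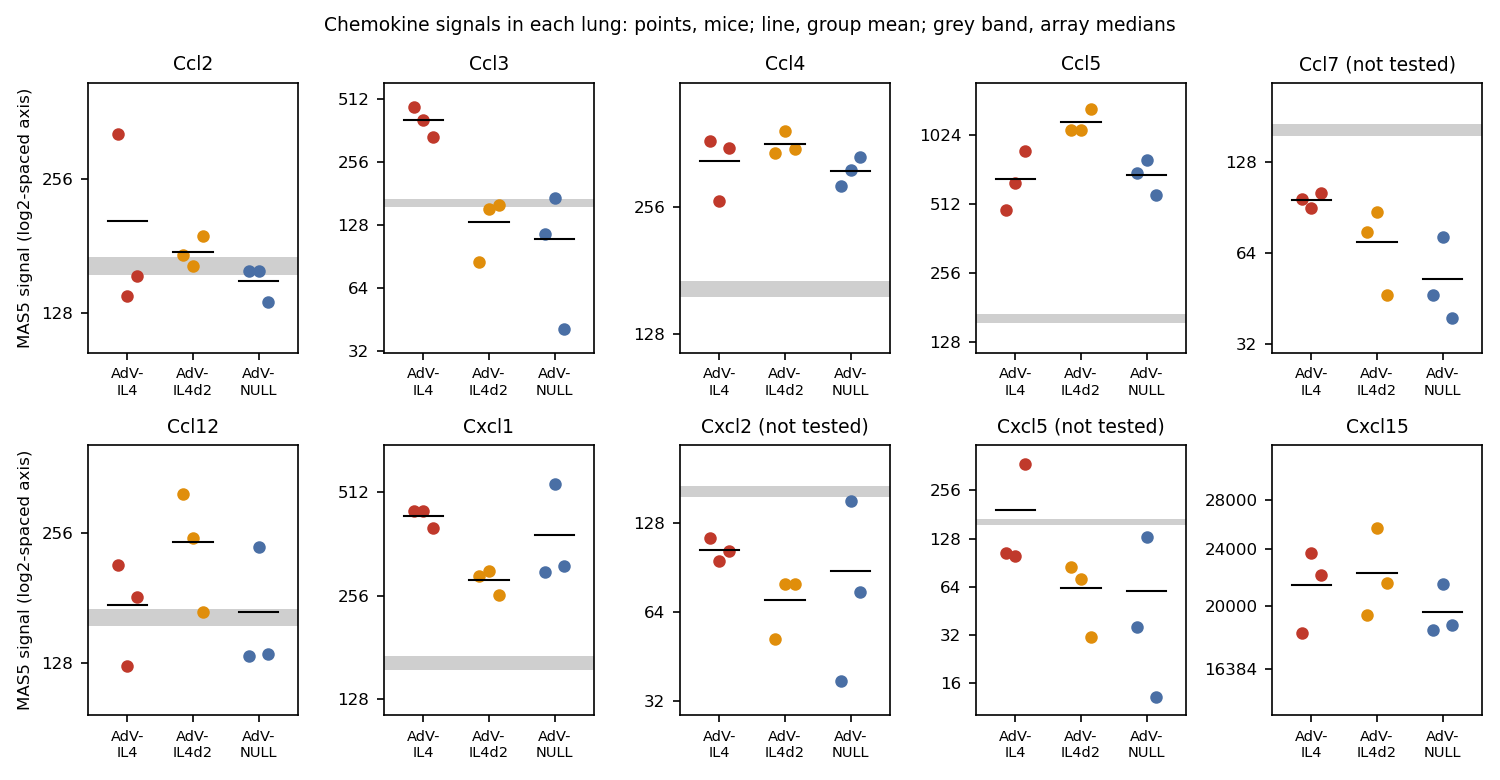
MAS5 signal (log2-spaced axis, a range of its own for each gene) of each chemokine in AdV-IL4, AdV-IL4d2 and AdV-NULL lungs; points are mice, black lines group means (n = 3) and grey bands the range of array medians. Ccl3 lay at 338 to 472 in the AdV-IL4 lungs, above the other 6 lungs, and Ccl5 at 1076 to 1325 in the AdV-IL4d2 lungs, above the other 6 lungs.

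Ccl2, Ccl7 and Ccl12 are monocyte chemoattractant proteins of the mouse and ligands of Ccr2, the receptor by which inflammatory monocytes leave the bone marrow. Ccl2 read 322, 140 and 155 in AdV-IL4 lungs, 173, 163 and 191 in AdV-IL4d2 lungs, and 159, 159 and 136 in AdV-NULL lungs. AdV-IL4 mouse 1 alone was high, the other AdV-IL4 lungs lay among the AdV-NULL ones, and the AdV-IL4d2 lungs lay just above the AdV-NULL ones without overlap. The log2 difference was 0.32 with a 95% confidence interval of −0.28 to 0.91 for AdV-IL4 against AdV-NULL (limma adjusted p = 0.504), 0.19 for AdV-IL4d2 against AdV-NULL (adjusted p = 0.806) and 0.12 for AdV-IL4 against AdV-IL4d2 (adjusted p = 0.863). Without AdV-IL4 mouse 1 the first of these was −0.031, so its sign rested on that mouse. Ccl2 exceeded the array median on 4 of 9 arrays.

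Ccl12, also called MCP-5 in the mouse, read 216, 126 and 181 in AdV-IL4 lungs, 314, 248 and 168 in AdV-IL4d2 lungs, and 133, 237 and 134 in AdV-NULL lungs. The groups overlapped, and the 2 brightest lungs were AdV-IL4d2 mice. Its log2 difference was 0.07 for AdV-IL4 against AdV-NULL (interval −0.56 to 0.69, adjusted p = 0.913), 0.50 for AdV-IL4d2 against AdV-NULL (−0.13 to 1.13, adjusted p = 0.468) and −0.43 for AdV-IL4 against AdV-IL4d2 (−1.06 to 0.19, adjusted p = 0.487).

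Ccl7 was dim, at 96.9, 90.0 and 101 in AdV-IL4 lungs, 74.9, 87.4 and 46.6 in AdV-IL4d2 lungs, and 46.7, 72.5 and 39.0 in AdV-NULL lungs. The AdV-IL4 lungs lay above the other 6 without overlap, yet all 9 values were below the median of their array. In the fit without the filter its log2 difference was 0.73 for AdV-IL4 against AdV-NULL (interval 0.02 to 1.44, adjusted p = 0.272), 0.32 for AdV-IL4d2 against AdV-NULL (adjusted p = 0.817) and 0.42 for AdV-IL4 against AdV-IL4d2 (adjusted p = 0.679).

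Ccl3, Ccl4 and Ccl5 are made by macrophages and by T and NK cells, and Ccl3 and Ccl5 are ligands of Ccr1. Ccl3, the macrophage inflammatory protein 1 alpha, read 472, 410 and 338 in AdV-IL4 lungs, 86.0, 154 and 160 in AdV-IL4d2 lungs, and 116, 173 and 41.0 in AdV-NULL lungs. Each AdV-IL4 lung lay far above the other 6, and the AdV-IL4d2 and AdV-NULL lungs overlapped. Ccl3 averaged 407 ± 66.9 in AdV-IL4 lungs, 133 ± 40.9 in AdV-IL4d2 lungs and 110 ± 66.4 in AdV-NULL lungs (SD, n = 3 each). It rose 3.72-fold in AdV-IL4 lungs, with a log2 difference of 1.90 ± 0.38 (SE) against AdV-NULL and a 95% confidence interval of 1.07 to 2.73 (adjusted p = 0.00901, or 0.0197 without the filter). It passed the filter through the AdV-IL4 group, being above the array median in those 3 lungs and in AdV-NULL mouse 2 only, and a filter of 6 arrays left it untested. The value was 1.41 to 2.27 when any single array was left out and kept its call in all 9 such fits.

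The log2 difference of Ccl3 for AdV-IL4d2 against AdV-NULL was 0.36 with an interval of −0.46 to 1.19 (adjusted p = 0.725). Set against AdV-IL4d2 lungs, the AdV-IL4 lungs differed by 1.53 ± 0.38 (SE), or 2.89-fold, with an interval of 0.71 to 2.36, and the groups did not overlap. That difference did not pass the test across all probe sets (adjusted p = 0.0688). It did so without AdV-NULL mouse 2 (adjusted p = 0.0424) or AdV-NULL mouse 3 (adjusted p = 0.0150), arrays which hold neither group and enter through the shared estimate of the spread, at the same value of 1.53. Over all 18 alternatives the difference ran from 0.53, on the poly-A scaling (adjusted p = 0.123), to 1.67, with adjusted p of 0.0122 to 0.194.

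The tested genes whose pattern over the 9 arrays was most like that of Ccl3 were Gatm, Chil3 and Acp5. The measure of likeness was the root mean square difference between the log2 signals, each centred on its own mean, which came to 0.322, 0.327 and 0.332, while Ccl3 spanned 3.10 log2 units. Gatm, which makes the creatine precursor guanidinoacetate, read 469, 356 and 452 in AdV-IL4 lungs, 164, 185 and 199 in AdV-IL4d2 lungs, and 131, 194 and 84.2 in AdV-NULL lungs. Acp5, the tartrate-resistant acid phosphatase of osteoclasts and macrophages, had a log2 difference of 1.57 for AdV-IL4 against AdV-NULL, and Chil3, a chitinase-like protein of alveolar macrophages, 1.42. Since they were picked for a pattern like that of Ccl3, the direction of these differences was fixed by the choice. The 10 macrophage markers measured summed to 50375 to 55544 in AdV-IL4 lungs, 21193 to 29538 in AdV-IL4d2 lungs and 23008 to 36761 in AdV-NULL lungs. Most of the AdV-IL4 sum was Chil3 itself, at 35107 to 40195. The mean log2 signal of the 10 was 10.51 to 10.61 in AdV-IL4, 10.12 to 10.40 in AdV-IL4d2 and 10.21 to 10.66 in AdV-NULL lungs. By that mean the AdV-IL4 lungs lay above the AdV-IL4d2 lungs without overlap, and the AdV-NULL lungs overlapped both. Between AdV-IL4 and AdV-NULL 6 of the 10 differences were positive and 4 negative. None of the 10 was at 0, and 9 lay above the array median on all arrays, the other being Marco. Their part in the Ccl3 signal was not tested.

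Ccl4, the macrophage inflammatory protein 1 beta, is the genomic neighbour of Ccl3 and read 367, 264 and 353 in AdV-IL4 lungs, 344, 387 and 351 in AdV-IL4d2 lungs, and 287, 312 and 336 in AdV-NULL lungs. All 9 values lay above the array median within a narrow range, and the AdV-IL4d2 lungs lay just above the AdV-NULL lungs without overlap. The log2 difference was 0.06 for AdV-IL4 against AdV-NULL (interval −0.27 to 0.39, adjusted p = 0.844), 0.20 for AdV-IL4d2 against AdV-NULL (−0.13 to 0.53, adjusted p = 0.599) and −0.14 for AdV-IL4 against AdV-IL4d2 (−0.47 to 0.19, adjusted p = 0.688). On arrays scaled to the poly-A controls the first of these was −0.69 and was called (adjusted p = 0.0167), beside a median gene at a shift of −0.77.

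Ccl5, or RANTES, is a product of T cells, NK cells and virus-exposed epithelium that attracts monocytes, T cells and eosinophils. It read 484, 632 and 868 in AdV-IL4 lungs, 1076, 1080 and 1325 in AdV-IL4d2 lungs, and 700, 794 and 563 in AdV-NULL lungs. Each AdV-IL4d2 lung lay above the other 6, whereas the AdV-IL4 and AdV-NULL lungs overlapped. Means were 661 ± 194 in AdV-IL4 lungs, 1160 ± 142 in AdV-IL4d2 lungs and 686 ± 116 in AdV-NULL lungs (SD, n = 3 each). The log2 difference for AdV-IL4d2 against AdV-NULL was 0.75 ± 0.19 (SE), or 1.69-fold, with an interval of 0.34 to 1.16, and it did not pass the test across all probe sets (adjusted p = 0.0801). Between AdV-IL4 and AdV-IL4d2 lungs it was −0.83 ± 0.19, with an interval of −1.24 to −0.42 (adjusted p = 0.0502), and for AdV-IL4 against AdV-NULL it was −0.08, with an interval of −0.49 to 0.34 (adjusted p = 0.842). On the poly-A scaling AdV-IL4 against AdV-NULL gave −0.85 and was called (adjusted p = 0.00203), and AdV-IL4 against AdV-IL4d2 gave −1.35 and −1.88 on the hybridisation and poly-A scalings, both called, beside the shifts of the median gene given above.

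The Ccl5 call turned on small changes of the fit. The difference of AdV-IL4d2 from AdV-NULL was called at the same 0.75 without AdV-IL4 mouse 1 (adjusted p = 0.0355) or AdV-IL4 mouse 3 (adjusted p = 0.0463), neither of which belongs to that comparison. That of AdV-IL4 from AdV-IL4d2 was called at −1.04 without AdV-IL4 mouse 3 (adjusted p = 0.0209). Among the T and NK cell markers, 2 of 9 tested rose in AdV-IL4d2 lungs: Cd3g, a chain of the T cell receptor complex, by a log2 difference of 0.86 (adjusted p = 0.0399) and Lat, a T cell receptor adaptor, by 0.76 (adjusted p = 0.0318). With 1 array left out each lost its call in 5 of 9 fits, and without AdV-NULL mouse 1 and AdV-IL4 mouse 2 both were lost. Lat was also called higher in AdV-IL4 lungs against AdV-NULL, at 0.52, the 1 marker of the 9 called there. That call was lost in 8 of 9 fits with 1 array left out. The 9 tested T and NK cell markers summed to 4306 to 5220 in AdV-IL4 lungs, 5419 to 6409 in AdV-IL4d2 lungs and 4338 to 5304 in AdV-NULL lungs. None of the 12 measured was at 0, Cd4 lay below the array median on every array, and their part in the Ccl5 signal was not tested.

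**Figure D2:**
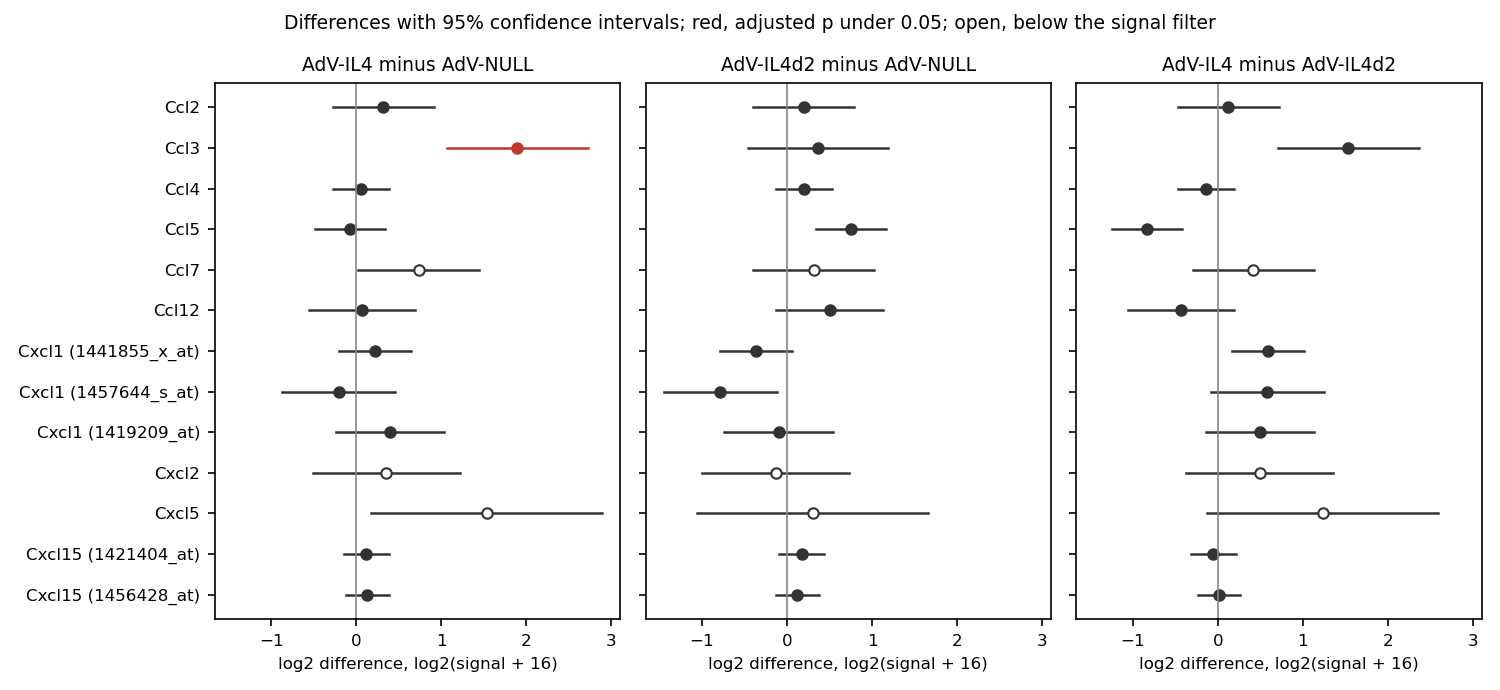
Log2 differences on the log2(signal + 16) scale of the 13 chemokine probe sets for AdV-IL4 minus AdV-NULL, AdV-IL4d2 minus AdV-NULL and AdV-IL4 minus AdV-IL4d2; points are estimates, bars 95% confidence intervals, red an adjusted p under 0.05 and open points the 3 genes below the filter. Ccl3 in the panel of AdV-IL4 minus AdV-NULL, at 1.90, is the one red point.

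Cxcl1, Cxcl2 and Cxcl5 are the neutrophil attractants that signal through Cxcr2. Cxcl1, the mouse keratinocyte-derived chemokine, read 451, 452 and 403 in AdV-IL4 lungs, 292, 302 and 258 in AdV-IL4d2 lungs, and 301, 539 and 312 in AdV-NULL lungs. The AdV-IL4 lungs lay above the AdV-IL4d2 lungs without overlap, and AdV-NULL mouse 2 was the brightest of all 9. Its log2 difference was 0.59 ± 0.19 (SE) for AdV-IL4 against AdV-IL4d2, with an interval of 0.17 to 1.01 (adjusted p = 0.156). That difference passed the test without AdV-NULL mouse 2 (adjusted p = 0.0469), at the same value. For AdV-IL4 against AdV-NULL it was 0.22 (−0.20 to 0.65, adjusted p = 0.513) and for AdV-IL4d2 against AdV-NULL −0.37 (−0.79 to 0.06, adjusted p = 0.424).

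Cxcl1 has a pair of further probe sets, which did not all run the same way. The next brightest read 251, 171 and 328 in AdV-IL4 lungs, 191, 186 and 107 in AdV-IL4d2 lungs, and 245, 431 and 209 in AdV-NULL lungs. The AdV-IL4d2 lungs lay below the AdV-NULL lungs without overlap, and the AdV-IL4 lungs overlapped both. It gave −0.20 for AdV-IL4 against AdV-NULL (adjusted p = 0.724), −0.78 for AdV-IL4d2 against AdV-NULL (adjusted p = 0.257) and 0.58 for AdV-IL4 against AdV-IL4d2 (adjusted p = 0.371). The third read 275, 235 and 265 in AdV-IL4 lungs, 232, 137 and 177 in AdV-IL4d2 lungs, and 133, 332 and 156 in AdV-NULL lungs, and gave 0.40, −0.10 and 0.50 (adjusted p = 0.427, 0.918 and 0.431). All 3 probe sets were positive for AdV-IL4 against AdV-IL4d2, and none passed the test.

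Cxcl2, the macrophage inflammatory protein 2, was below the array median in every lung, at 114, 94.7 and 103 in AdV-IL4 lungs, 51.8, 79.1 and 79.3 in AdV-IL4d2 lungs, and 37.2, 152 and 74.8 in AdV-NULL lungs. The AdV-IL4 lungs lay above the AdV-IL4d2 lungs, and the AdV-NULL lungs spanned both. In the fit without the filter the log2 difference was 0.36 for AdV-IL4 against AdV-NULL (interval −0.51 to 1.22, adjusted p = 0.722), −0.13 for AdV-IL4d2 against AdV-NULL (adjusted p = 0.951) and 0.49 for AdV-IL4 against AdV-IL4d2 (adjusted p = 0.694).

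Cxcl5, which alveolar epithelium and platelets make, read 104, 100 and 376 in AdV-IL4 lungs, 84.6, 72.2 and 31.3 in AdV-IL4d2 lungs, and 36.2, 131 and 13.2 in AdV-NULL lungs. AdV-IL4 mouse 3 was the one lung above its array median, the AdV-IL4 and AdV-NULL lungs overlapped, and all AdV-IL4 lungs lay above the AdV-IL4d2 lungs. Without the filter the log2 difference was 1.53 for AdV-IL4 against AdV-NULL, with an interval of 0.18 to 2.89 (adjusted p = 0.221), 0.30 for AdV-IL4d2 against AdV-NULL (adjusted p = 0.921) and 1.23 for AdV-IL4 against AdV-IL4d2 (adjusted p = 0.475). At such signals MAS5 values are noisy: trpn, a bacterial transcript that serves as a negative control, reached 55.8 on the array of AdV-NULL mouse 2.

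Cxcl15 was among the brightest probe sets on every array, between the 99.6th and 99.8th percentile. It read 18372, 23667 and 22044 in AdV-IL4 lungs, 19441, 25645 and 21492 in AdV-IL4d2 lungs, and 18535, 21437 and 18835 in AdV-NULL lungs. The groups overlapped and differed little. The log2 difference was 0.12 for AdV-IL4 against AdV-NULL (interval −0.15 to 0.38, adjusted p = 0.584), 0.17 for AdV-IL4d2 against AdV-NULL (−0.09 to 0.44, adjusted p = 0.570) and −0.05 for AdV-IL4 against AdV-IL4d2 (−0.32 to 0.21, adjusted p = 0.867). Scaled to the poly-A controls the first of these was −0.68 and was called (adjusted p = 0.00343), close to the shift of the median gene. Its other probe set gave 0.13, 0.12 and 0.01.

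Relative to other genes of the blocks, which were chosen by position with their values known, Ccl3 was not the largest change. Ccl9 read 6062, 4612 and 3145 in AdV-IL4 lungs, 1760, 1644 and 1371 in AdV-IL4d2 lungs, and 697, 1075 and 590 in AdV-NULL lungs, 3 groups without overlap. It rose 5.73-fold in AdV-IL4 lungs against AdV-NULL (log2 difference 2.52 ± 0.23 SE, adjusted p = 7.74e-05). Ccl6 read 14399, 15858 and 13385 in AdV-IL4 lungs, 5271, 7630 and 6392 in AdV-IL4d2 lungs, and 3188, 5642 and 3005 in AdV-NULL lungs. Its AdV-IL4 lungs lay above the other 6, and it rose 3.83-fold against AdV-NULL (1.94 ± 0.20, adjusted p = 0.000178). Both are Ccr1 ligands known from rodents that lie between Ccl5 and Ccl3, so in gene order Ccl5, Ccl9, Ccl6, Ccl3 and Ccl4 gave −0.08, 2.52, 1.94, 1.90 and 0.06.

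In AdV-IL4d2 lungs the same 5 genes gave log2 differences of 0.75, 1.04, 0.75, 0.36 and 0.20 against AdV-NULL, with 0 called (adjusted p from 0.0546 for Ccl9 to 0.725 for Ccl3). Set against AdV-IL4d2 lungs, AdV-IL4 lungs had more of both: Ccl9 rose by 1.48 (adjusted p = 0.00898) and Ccl6 by 1.19 (adjusted p = 0.0134). The Ccl9 call was lost without AdV-IL4d2 mouse 3 (1.38), and that of Ccl6 without AdV-IL4d2 mouse 1 (1.05) or AdV-IL4d2 mouse 3 (1.19). On the poly-A scaling neither was called, at 0.41 for Ccl9 and 0.11 for Ccl6.

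In the block of Ccl2, Ccl7, Ccl11 and Ccl12 the log2 differences for AdV-IL4 against AdV-NULL were 0.32, 0.73, 0.75 and 0.07. Ccl11, the eosinophil attractant eotaxin, read 288, 179 and 127 in AdV-IL4 lungs, 82.4, 51.2 and 98.8 in AdV-IL4d2 lungs, and 124, 104 and 91.0 in AdV-NULL lungs, and was below the filter. In the chromosome 5 block Ppbp, a platelet chemokine that also binds Cxcr2, fell to 453, 395 and 508 in AdV-IL4 lungs, against 723, 981 and 984 in AdV-NULL lungs (log2 difference −0.96 ± 0.19 SE, adjusted p = 0.00918). It was the one called gene among the 7 of that block, and Cxcl3, a further Cxcr2 ligand, was below the filter at 123, 89.1 and 150 in AdV-IL4 lungs, 55.6, 66.3 and 39.4 in AdV-IL4d2 lungs, and 41.4, 88.6 and 51.9 in AdV-NULL lungs.

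**Figure D3:**
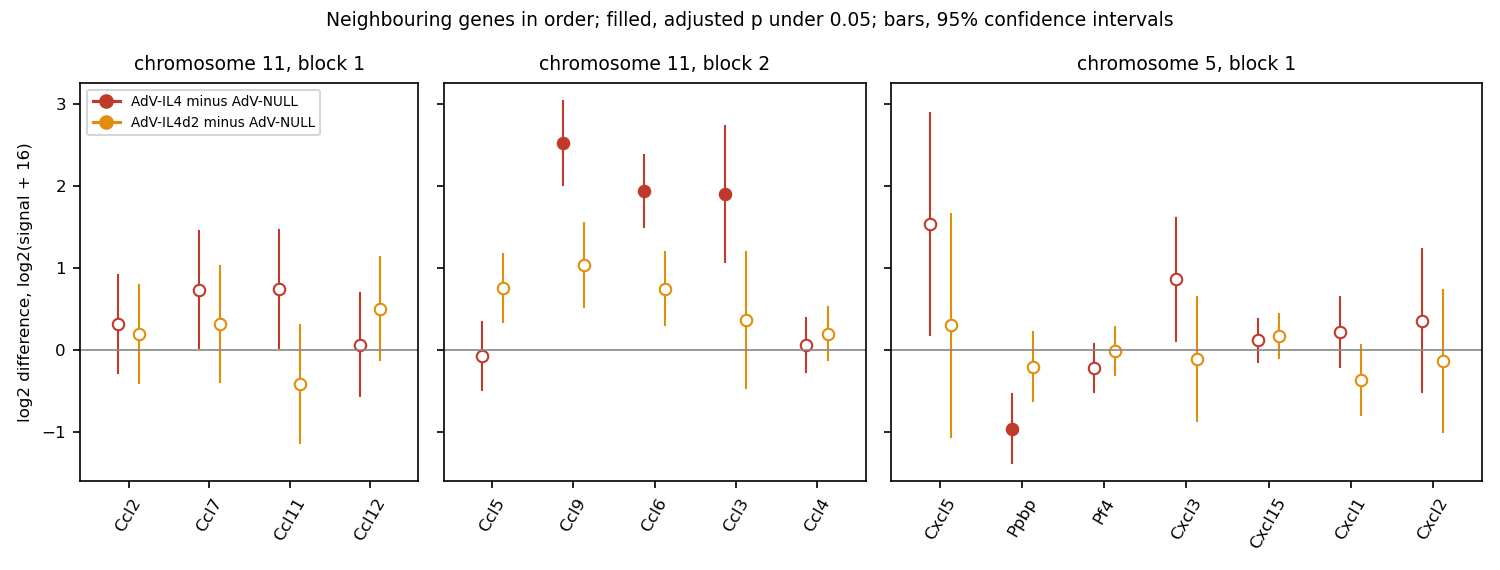
Log2 differences on the log2(signal + 16) scale for AdV-IL4 minus AdV-NULL (red) and AdV-IL4d2 minus AdV-NULL (orange) of the chemokine genes in their order along chromosomes 11 and 5; bars are 95% confidence intervals and filled points have an adjusted p under 0.05. In AdV-IL4 lungs the adjacent Ccl9, Ccl6 and Ccl3 were called, at 2.52, 1.94 and 1.90, between Ccl5 and Ccl4, which were not.

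Of 9 receptors listed for these chemokines, 7 had a probe set of a single symbol and 5 were tested, of which 1 rose and 0 fell in AdV-IL4 lungs and 0 were called in AdV-IL4d2 lungs. Ccr1, the receptor of Ccl3, Ccl5 and Ccl7, read 447, 499 and 404 in AdV-IL4 lungs, 312, 307 and 276 in AdV-IL4d2 lungs, and 216, 310 and 196 in AdV-NULL lungs. The AdV-IL4 lungs lay above the other 6 without overlap, and Ccr1 rose 1.84-fold against AdV-NULL (log2 difference 0.88 ± 0.17 SE, adjusted p = 0.00790). It kept that call with any 1 array left out but not without both AdV-NULL mouse 1 and AdV-IL4 mouse 2 (0.75, adjusted p = 0.0814), nor on the hybridisation or poly-A scaling (0.45 and 0.12). Between AdV-IL4d2 and AdV-NULL the difference was 0.32 (adjusted p = 0.439), and for AdV-IL4 against AdV-IL4d2 it was 0.57 (adjusted p = 0.126).

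Ccr2, the receptor of Ccl2, Ccl7 and Ccl12, read 1454, 1938 and 1255 in AdV-IL4 lungs, 1052, 939 and 933 in AdV-IL4d2 lungs, and 1054, 1799 and 1240 in AdV-NULL lungs. The AdV-IL4d2 lungs were the lowest and did not overlap the AdV-IL4 lungs. Its log2 differences were 0.19 for AdV-IL4 against AdV-NULL (adjusted p = 0.559), −0.44 for AdV-IL4d2 against AdV-NULL (adjusted p = 0.299) and 0.64 for AdV-IL4 against AdV-IL4d2 (adjusted p = 0.113). The scavenging receptors Ackr1 and Ackr2 and the chemerin-binding Ccrl2 differed by 0.05 to 0.16 between AdV-IL4 and AdV-NULL lungs, with none called. Cxcr2, the neutrophil receptor of Cxcl1, Cxcl2 and Cxcl5, stayed at 12.4 to 25.1 in AdV-IL4, 28.8 to 89.9 in AdV-IL4d2 and 14.4 to 38.4 in AdV-NULL lungs, and the eosinophil receptor Ccr3 was as dim, so neither was tested. The remaining receptors of the list were not analysed here.

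Of 9 other genes of neutrophil attraction, 4 were tested, and 2 fell in AdV-IL4 lungs while 0 rose. They were Ppbp and the formyl peptide receptor Fpr2, which read 129, 265 and 276 in AdV-IL4 lungs, 367, 420 and 510 in AdV-IL4d2 lungs, and 416, 761 and 441 in AdV-NULL lungs. Fpr2 lay lower in each AdV-IL4 lung than in the other 6 (log2 difference −1.23 ± 0.28 SE against AdV-NULL, adjusted p = 0.0164), and the call was lost without AdV-NULL mouse 2 (−0.96, adjusted p = 0.0534). Of the other tested genes, the complement receptor C5ar1 and the receptor chain Il17ra were not called in any comparison.

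Neutrophil markers were set beside these results. Of 16 written, 15 were measured and 7 tested, and in AdV-IL4 lungs 2 fell and 1 rose against AdV-NULL, while in AdV-IL4d2 lungs 0 were called. S100a9, one of the calgranulin pair abundant in neutrophils and monocytes, read 247, 427 and 579 in AdV-IL4 lungs, 2078, 1458 and 3643 in AdV-IL4d2 lungs, and 1712, 3151 and 1554 in AdV-NULL lungs. It fell by 2.32 on the log2 scale in AdV-IL4 lungs against AdV-NULL (adjusted p = 0.00208), and its partner S100a8 fell by 1.97 (adjusted p = 0.0115). Lcn2, an iron-scavenging protein of neutrophils and epithelium, rose by 1.03 (adjusted p = 0.0148), a call lost without AdV-NULL mouse 1 (0.90) or AdV-NULL mouse 3 (0.81) and on the poly-A scaling (0.23).

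The 7 tested neutrophil markers summed to 12738 to 16907 in AdV-IL4 lungs, 12916 to 17394 in AdV-IL4d2 lungs and 9329 to 18136 in AdV-NULL lungs, and these sums overlapped. Lcn2 was the largest part in every lung but AdV-NULL mouse 1, where Ltf was, at 7375 beside 3914 for Lcn2. The mean log2 signal of the 7 was 8.96 to 9.79 in AdV-IL4 lungs, 9.89 to 10.26 in AdV-IL4d2 lungs and 9.80 to 10.37 in AdV-NULL lungs. It was lowest in the AdV-IL4 lungs without overlap, but AdV-IL4 mouse 3 at 9.7905 lay barely below AdV-NULL mouse 3 at 9.7978. Of the 7 differences between AdV-IL4 and AdV-NULL 6 were negative, with a median of −0.65. S100a8 and S100a9, at −1.97 and −2.32, were the largest, and the others ran from −0.69 for Csf3r to 1.03 for Lcn2. None of the 15 measured was at 0, but Camp, Elane, Mpo, Mmp8, Itgb2l, Il1r2 and Cxcr2 lay below the array median on all 9 arrays. Their part in the values of Cxcl1, Cxcl2, Cxcl5 and Cxcl15 was not tested.

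Of 8 tested monocyte markers, 1 rose and 2 fell in AdV-IL4 lungs. Fn1, fibronectin, rose by 0.64 (adjusted p = 0.00117) but stood at −0.15 on the poly-A scaling, and Nr4a1, a transcription factor of patrolling monocytes and an immediate early gene, fell by 1.81 (adjusted p = 0.000169). F13a1, a coagulation factor subunit of monocytes and macrophages, fell by 0.81 (adjusted p = 0.0201), a call lost without AdV-IL4 mouse 1 (−0.76), AdV-IL4 mouse 3 (−0.74), AdV-NULL mouse 1 (−0.83) or AdV-NULL mouse 2 (−0.67). In AdV-IL4d2 lungs Nr4a1 fell by 1.74 (adjusted p = 0.000438) and 0 rose. Of 10 tested macrophage markers 6 rose and 1 fell in AdV-IL4 lungs, and 3 rose and 1 fell without AdV-NULL mouse 1 and AdV-IL4 mouse 2. With 1 array left out Mertk lost its call in 8 of 9 fits and Mrc1 in 5. On the poly-A scaling the risers Mrc1, Adgre1 and Mertk turned negative, at −0.29, −0.17 and −0.46, as did Mertk on the hybridisation scaling (−0.11). Itgax, the integrin CD11c of alveolar macrophages and dendritic cells, rose by 1.59 (adjusted p = 0.000103), while the scavenger receptor Marco fell by 2.55 (adjusted p = 0.000226).

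Of 15 tested genes, in a list of 20 that induce these chemokines or belong to the NF-kB pathway, 4 rose and 0 fell in AdV-IL4 lungs against AdV-NULL, and 0 rose and 1 fell in AdV-IL4d2 lungs. Tnfaip3, an NF-kB inhibitor induced by NF-kB itself, read 1111, 1271 and 1144 in AdV-IL4 lungs, 905, 939 and 916 in AdV-IL4d2 lungs, and 539, 769 and 552 in AdV-NULL lungs. The AdV-IL4 lungs were the highest and the AdV-NULL lungs the lowest without overlap, and the log2 difference of AdV-IL4 against AdV-NULL was 0.92 ± 0.13 SE (adjusted p = 0.00123). It was 0.48 on the hybridisation scaling and 0.14 on the poly-A scaling, and was called on neither. The AdV-IL4d2 lungs differed from AdV-NULL by 0.58 (adjusted p = 0.0546).

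The other genes called in AdV-IL4 lungs were the NF-kB subunit Relb at 0.64 (adjusted p = 0.0472), the interferon regulatory factor Irf1 at 0.44 (adjusted p = 0.0143) and the inhibitor Nfkbia at 0.34 (adjusted p = 0.0352). With 1 array left out Relb lost its call in 8 of 9 fits, Nfkbia in 6 and Irf1 in 1, the fit without AdV-NULL mouse 3 (0.36). Without AdV-NULL mouse 1 and AdV-IL4 mouse 2 only Tnfaip3 of the 4 was called. Scaled to the poly-A controls, Relb, Irf1 and Nfkbia turned negative, at −0.11, −0.35 and −0.46, and Irf1 and Nfkbia did so on the hybridisation scaling too, at −0.007 and −0.11, beside shifts of the median gene of −0.77 and −0.43. In AdV-IL4d2 lungs Nfkbiz, a nuclear protein of the IkB family, fell by 0.66 (adjusted p = 0.0342), and it lost its call in 6 of 9 fits with 1 array left out. Tnf lay below the filter, at 25.3, 90.1 and 55.0 in AdV-IL4 lungs, 13, 7.26 and 12.1 in AdV-IL4d2 lungs, and 11.6, 21.2 and 17.1 in AdV-NULL lungs. Every lung but AdV-IL4 mouse 2 lay below the highest negative control signal, that of trpn on the array of AdV-NULL mouse 2. The brightest trpn probe set read 8.96, 6.96 and 11.9 on the AdV-IL4 arrays, below Tnf on each of them. Without the filter the log2 difference of Tnf for AdV-IL4 against AdV-NULL was 1.07 (interval 0.26 to 1.88, limma adjusted p = 0.149), and these groups did not overlap.

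**Figure D4:**
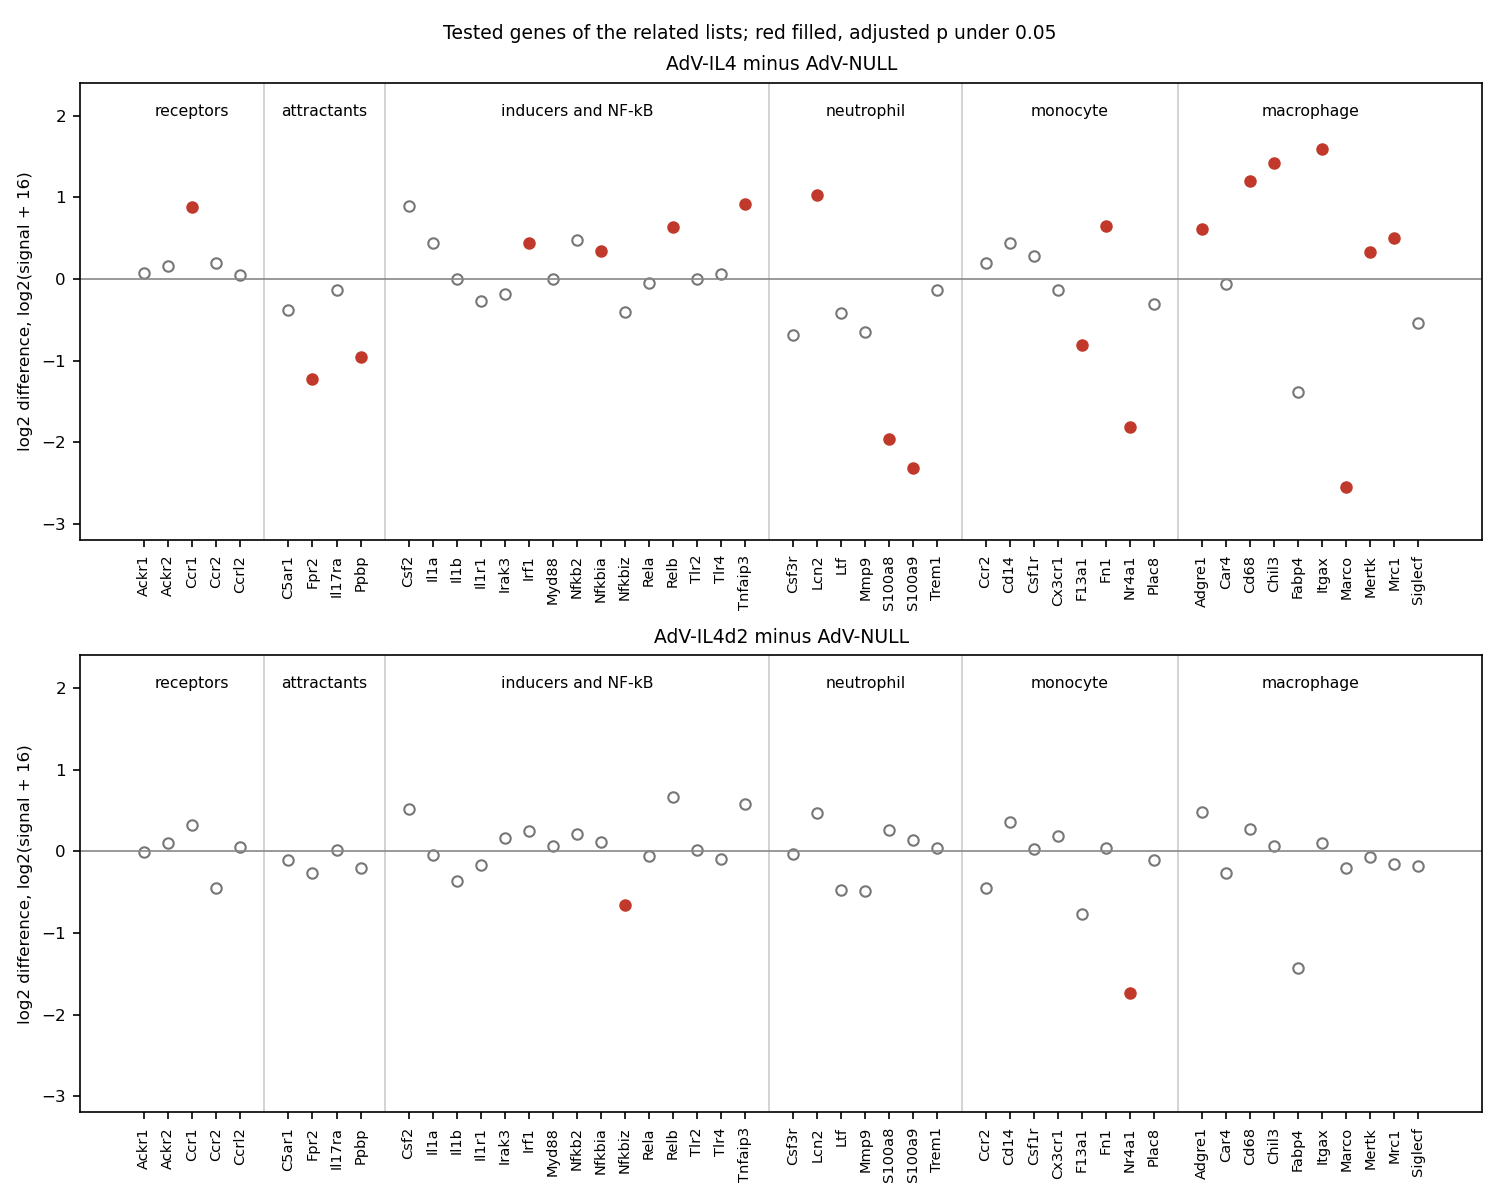
Log2 differences on the log2(signal + 16) scale of the tested genes of 6 related lists for AdV-IL4 minus AdV-NULL (top) and AdV-IL4d2 minus AdV-NULL (bottom); each point is 1 gene and red filled points have an adjusted p under 0.05. In AdV-IL4 lungs Ccr1 was called at 0.88 and S100a9 at −2.32, while in AdV-IL4d2 lungs Nfkbiz at −0.66 and Nr4a1 at −1.74 were the called genes of these lists.

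Over all alternatives tried, Ccl3 for AdV-IL4 against AdV-NULL was called in each of the 18 fits that tested it, with log2 differences of 1.16 to 2.27 and adjusted p of 0.000543 to 0.0459. Ccl3 for AdV-IL4 against AdV-IL4d2 was called in 5 of 18. Ccl5 was called in 5 of 19 fits for AdV-IL4d2 against AdV-NULL and in 5 of 19 for AdV-IL4 against AdV-IL4d2, with its sign the same in each of them. These genes were followed because of their values, so the counts describe how the calls depend on the fit and are no further evidence.

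**Figure D5:**
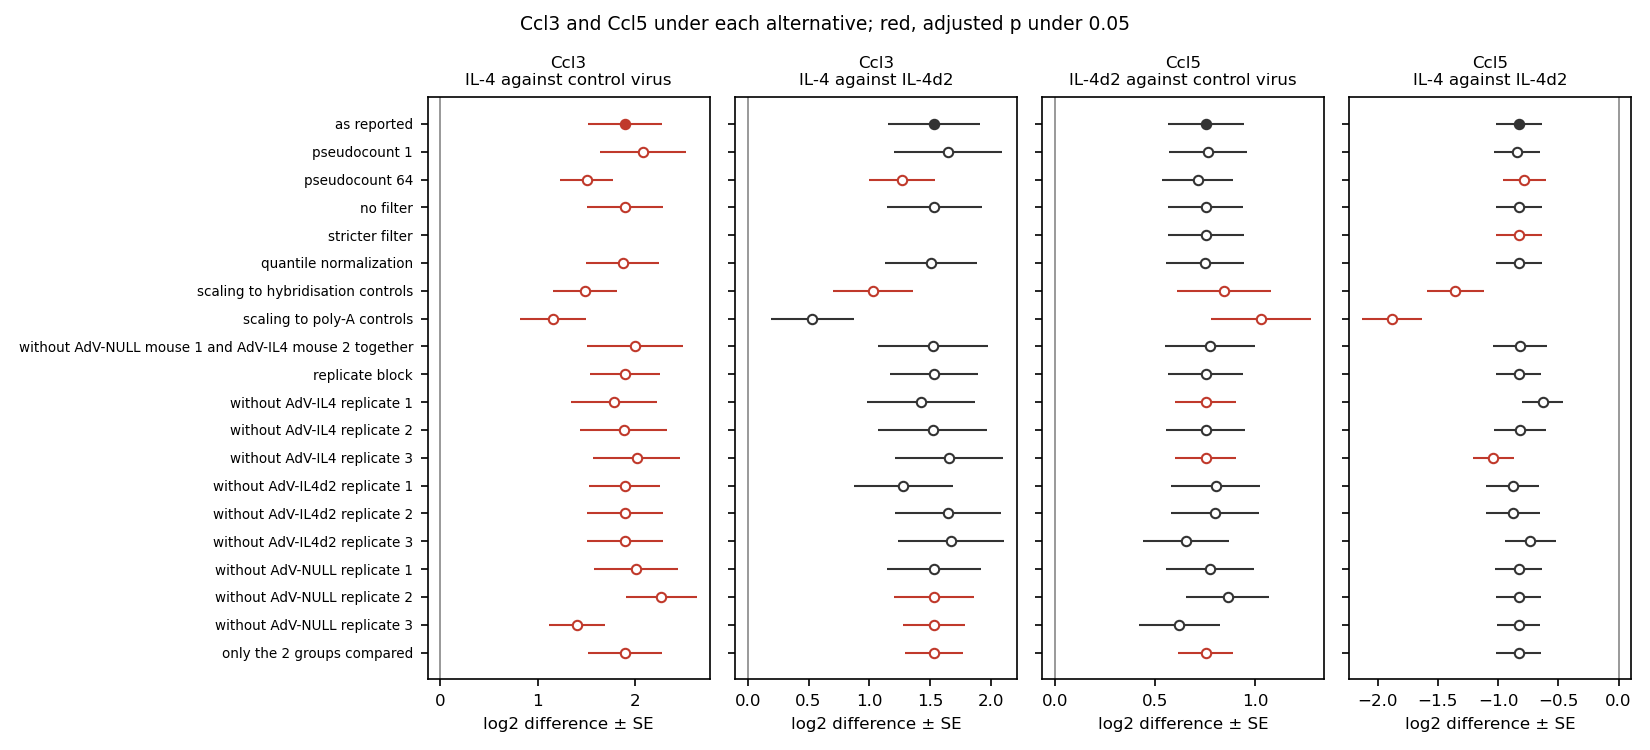
Log2 difference ± SE of Ccl3 and Ccl5 in the comparisons where their groups did not overlap, as reported (filled) and under each alternative (open); red marks an adjusted p under 0.05. Ccl3 for AdV-IL4 against AdV-NULL stayed red from 1.16 to 2.27, and Ccl5 for AdV-IL4d2 against AdV-NULL was red in 5 of 19 alternatives.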

How the data were processed

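The authors deposited a linear MAS5 signal intensity for each of 45101 probe sets on each of 9 arrays. Per the submitters' processing notes, MAS5, GCOS and version 2.0 of Affymetrix Expression Console were used; which did what is not given there. From the values, each array was scaled to a 2% trimmed mean of 500.002, which hides a change shared by most genes. The 64 control probe sets were left out. The platform annotation lists 35890 probe sets, 34958 with 1 symbol and 932 with several, which name no gene here, and the other 9211 are unnamed. Of the single symbols 34754 matched a current gene record, and 0 changed.

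Signals were taken as log2(signal + 16), which understates changes of dim probe sets. Probe sets above their array's median on at least 3 of 9 arrays were tested, 23824 in all, by limma 3.58.1 under R 4.3.3 (lmFit, then eBayes with a trend), with all 9 arrays in 1 model and no covariates. Two-sided p-values were adjusted per comparison after Benjamini and Hochberg and called at 0.05. For a gene with several tested probe sets the brightest stood. Genes below the filter were read from the same fit without it. The script was tested on simulated data. Alternatives were the pseudocount, the filter, quantile normalization, scaling to 18 hybridisation or 24 poly-A control probe sets, the replicate block, only the groups compared, the next brightest probe set and leaving out arrays. Taking AdV-NULL mouse 1 and AdV-IL4 mouse 2 out together was chosen after seeing their muscle signals.

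All members were named, as were up to 4 called genes of each related list or its brightest, the receptors and the 3 genes most like a called member. Members and lists were chosen with earlier results of these data known. The number of arrays limits the precision, and 3 against 3 allows no exact p below 0.10.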

Additional observations from a re-analysis of the deposited data

Results flagged for a closer look

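The direct difference between AdV-IL4 and AdV-IL4d2 lungs passed the limma test for 7 genes of the marker lists. The calgranulins S100a8 and S100a9 were lower in AdV-IL4 lungs, with log2 differences of −2.23 and −2.45, and the scavenger receptor Marco with −2.34. The call of S100a8 was lost without AdV-IL4d2 mouse 1 (−2.38) or AdV-IL4d2 mouse 3 (−1.79). The integrin Itgax was higher in AdV-IL4 lungs by 1.48, the chitinase-like Chil3 by 1.36, the mannose receptor Mrc1 by 0.66 and fibronectin Fn1 by 0.60. The call of Chil3 was lost without AdV-IL4d2 mouse 1 (1.13) or AdV-IL4d2 mouse 3 (1.43), and that of Mrc1 in 5 of 9 fits with 1 array left out. Scaled to the poly-A controls, where the median gene shifted by −1.05, Itgax at 0.41 (adjusted p = 0.0964) and Chil3 at 0.28 (adjusted p = 0.188) were not called, Mrc1 turned negative at −0.41, and Fn1 was called lower at −0.48 (adjusted p = 0.0432). On the hybridisation scaling Mrc1 at 0.13 and Fn1 at 0.06 were not called. Of the 10 chemokines none met this test.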

How the results depend on the processing

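Of 408 values of the chemokines under alternatives, 357 kept their direction and side of the threshold, 23 became called and 28 turned sign, 3 of these called, all on poly-A controls (Ccl4 and Cxcl15 against AdV-NULL, Ccl2 against AdV-IL4d2). The causes were not tested, except that control scalings move the median gene too. Scaled to the hybridisation and poly-A controls, AdV-IL4 against AdV-NULL gave −0.094 and −0.40 for Ccl2, −0.36 and −0.69 for Ccl4, −0.34 and −0.64 for Ccl12, −0.21 and −0.54 for Cxcl1 and −0.33 and −0.68 for Cxcl15, and AdV-IL4 against AdV-IL4d2 gave −0.38 and −0.86 for Ccl2. Cxcl1 for AdV-IL4 against AdV-IL4d2 was −0.44 on poly-A controls. The next brightest probe sets gave −0.20 for Cxcl1 against AdV-NULL and 0.012 for Cxcl15 against AdV-IL4d2, and Ccl4 against AdV-IL4d2 was 0.0009 without AdV-NULL mouse 1 and AdV-IL4 mouse 2. With 1 array left out, AdV-IL4 against AdV-NULL ran from −0.031 to 0.53 for Ccl2, −0.024 to 0.20 for Ccl4, −0.29 to 0.12 for Ccl5 and −0.09 to 0.32 for Ccl12. AdV-IL4d2 against AdV-NULL ran from −0.13 to 0.74 for Ccl3, and AdV-IL4 against AdV-IL4d2 from −0.23 to 0.33 for Ccl2, −0.23 to 0.0009 for Ccl4 and −0.14 to 0.055 for Cxcl15.

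The members called for AdV-IL4 against AdV-NULL, 1 as reported, were 0 with the filter of 6 arrays, which left Ccl3 out, and 4 on poly-A controls. For AdV-IL4d2 against AdV-NULL, 0 became 1 on hybridisation controls, on poly-A controls and with only those groups fitted, and 0 to 1 with 1 array left out. For AdV-IL4 against AdV-IL4d2, 0 became 2 with a pseudocount of 64, 1 with the filter of 6 arrays, 5 on either control scaling, 1 with only those groups fitted and 0 to 2 with 1 array left out. Of 23824 probe sets, 2546, 314 and 416 were called in the 3 comparisons. For AdV-IL4 against AdV-NULL the count was 7451 on hybridisation controls, 18123 on poly-A controls, 1068 without both arrays that stood apart and 1313 to 2210 with 1 left out (1313 without AdV-NULL mouse 1, 1696 without AdV-NULL mouse 3). The count for AdV-IL4d2 against AdV-NULL was 519 on poly-A controls, 200 without both arrays and 156 to 417 with 1 left out. The count for AdV-IL4 against AdV-IL4d2 was 244 with no filter, 11163 and 22503 on the control scalings, 237 without both arrays and 110 to 446 with 1 left out. Same-numbered mice of different groups deviated with correlations of −0.069 to 0.116, and differently numbered mice with −0.133 to 0.132. No pairing by number showed in these values, though 3 mice per group are too few to exclude one. With the replicate block the counts were 2427, 312 and 384, and 1, 0 and 0 members were called.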
